A study of Rattus norvegicus with 6 samples.

Results

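Cytochrome P450 enzymes are heme proteins that insert an oxygen atom into fatty acids, sterols, retinoids and foreign compounds, using electrons passed on by a reductase or a ferredoxin. In the kidney, members of the Cyp2c and Cyp2j families turn arachidonic acid into epoxides, and members of the Cyp4a and Cyp4f families hydroxylate the end of its chain to HETE. Both kinds of product act on vessels and on salt transport. The P450 genes were taken from the table of normalized counts by name, as every feature named Cyp with a family number and a subfamily letter. Of 27321 features, 65 matched. Of these, 57 were rows of a single gene, 1 merged Cyp2t1 with the overlapping gene Egln2, and 7 named several separate genes joined by commas. The 57 single genes and the merged row are described as 58 Cyp genes. The 7 joined rows held at most 5.57 normalized counts in any library and could not be assigned to a single gene. A further 10 P450 features carried other names, among them protein entry names such as CP4B1_RAT, and are kept apart.

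The study sequenced RNA of the IM tip, the deepest part of the kidney inner medulla (IM), to compare transcripts, above all those of glycosylation, between diabetic and control rats. All animals were male Sprague-Dawley rats of 3 months. The 3 STZ rats had received streptozotocin (STZ), a toxin of the pancreatic beta cells, at 62.5 mg/kg by tail vein in citrate buffer, and the 3 control rats the vehicle. Tissue was taken on day 15, and diabetes had been checked by blood glucose on the day after the injection, so the model is one of recent insulin loss. Each library held between 3412311 and 5575171 reads on features, and 1 read was worth between 0.763 and 1.11 normalized counts. The 7 collecting duct markers measured, Aqp2 and Fxyd4 among them, were above background in every library. Lane 3 held every control library, and the STZ replicates 1, 2 and 3 ran on lanes 7, 6 and 8, so that effects of lane and of STZ cannot be told apart.

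The 3 promoters of the Cyp4 cluster on chromosome 5 are printed because the genes behind them gave both the lower and the higher values in STZ rats. They are the 250 bases before the RefSeq start, on the GRCr8 build and the minus strand, written 5′ to 3′. The capitals mark AGGTCA, a site read by many nuclear receptors. The windows are chr5:133970227-133970476 for Cyp4a8, chr5:134170909-134171158 for Cyp4a2 and chr5:134393117-134393366 for Cyp4b1.
Cyp4a8: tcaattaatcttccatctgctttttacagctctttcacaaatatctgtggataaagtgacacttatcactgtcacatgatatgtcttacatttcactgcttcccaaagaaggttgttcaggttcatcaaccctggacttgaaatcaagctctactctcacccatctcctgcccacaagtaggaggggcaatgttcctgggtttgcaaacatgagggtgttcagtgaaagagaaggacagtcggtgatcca
Cyp4a2: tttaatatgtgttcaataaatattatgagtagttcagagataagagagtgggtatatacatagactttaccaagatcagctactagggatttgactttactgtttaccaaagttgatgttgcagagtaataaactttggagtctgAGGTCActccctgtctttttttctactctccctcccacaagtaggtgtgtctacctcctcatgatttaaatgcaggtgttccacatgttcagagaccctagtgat
Cyp4b1: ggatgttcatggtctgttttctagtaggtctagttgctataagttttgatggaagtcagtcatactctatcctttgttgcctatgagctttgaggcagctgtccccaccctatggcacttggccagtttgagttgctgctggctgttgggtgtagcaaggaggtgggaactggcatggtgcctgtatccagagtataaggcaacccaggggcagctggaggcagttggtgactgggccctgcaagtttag
Of the 57 single genes, 42 had a promoter under the same symbol in the RefSeq table of 33469 promoters. AGGTCA, searched on both strands, was found in 1 place in the Cyp4a2 window, 105 bases before the start, and not in the other windows. It is present in 14.1% of all promoters of this length. GCGTG, the core read by the aryl hydrocarbon receptor and searched on both strands, is present in 25.9% of all promoters, and TATAAA, searched on the gene strand, in 8.06%. Neither was found in any of these windows. AGGTCA and GCGTG share no position in these windows, and the matches describe letters only.

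Most Cyp genes did not exceed background in every library of the IM tip. Background was set in each library as the 95th percentile of 835 olfactory receptor genes. This family was assumed not to be transcribed in this tissue at levels worth counting. In normalized counts it was 2.05, 6.33 and 10.02 in the control libraries, given here and throughout as replicates 1, 2 and 3, and 1.86, 5.93 and 9.03 in the STZ libraries. Replicate 3 was thus the highest and replicate 1 the lowest in both groups. Of the 58 Cyp genes, 17 were above background in all 6 libraries, beside 38.3% of all features. Another 17 were above it in some libraries and 24 in none. Of the 58, 19 never exceeded 3 reads in any library and Cyp8b1, which acts in bile acid synthesis, had 0 reads in all 6. Between 20 and 26 Cyp genes were above background per library. The 26 came from replicate 1 of each group, where background was below the value of 3 reads (3.08 and 2.79 normalized counts). More than 3 reads were seen there for 23 Cyp genes in the control and 25 in the STZ library. Olfactory receptor loci had a median length of 0.943 kb and Cyp loci one of 16.6 kb, so equal levels per length would not give equal counts. Per kilobase of locus, introns included, 1 Cyp gene was above the olfactory receptor percentile in all libraries.

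**Figure D1:**
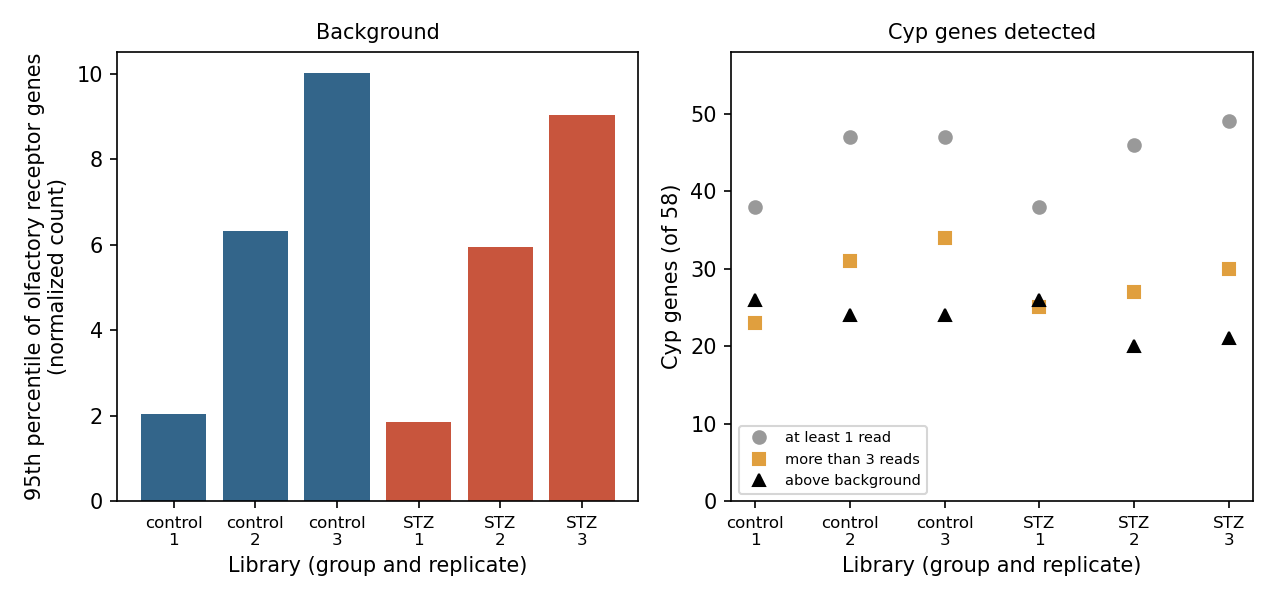
The left panel shows background (95th percentile of 835 olfactory receptor genes, normalized count) as 1 bar per library, and the right panel shows how many of 58 Cyp genes had at least 1 read, more than 3 reads, or a value above background in that library. Background ran from 1.86 to 10.02, and the number of Cyp genes above it from 20 to 26.

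The arachidonic acid families held 21 of the 58 genes, 8 of them above background in all 6 libraries. These were Cyp2c23, Cyp2j4, Cyp2j10, Cyp4a2, Cyp4a8, Cyp4f6, Cyp4f17 and Cyp4v3. The xenobiotic families, which clear drugs and other foreign compounds, held 21 genes with 5 above background (Cyp2d4, Cyp2e1, Cyp2u1, Cyp3a23/3a1 and the merged Cyp2t1 row). The cholesterol and bile acid enzymes gave 2 of 6 (Cyp27a1 and Cyp7b1) and the steroid hormone enzymes 1 of 5 (Cyp11a1). The vitamin D and retinoid enzymes gave 0 of 4 (Cyp24a1, Cyp26a1, Cyp26b1 and Cyp26c1). Cyp2r1 and Cyp27b1, also placed in this class, were not among the 58 genes. Cyp20a1, an orphan enzyme whose substrate is not settled, was in none of these classes and above background in every library.

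**Figure D2:**
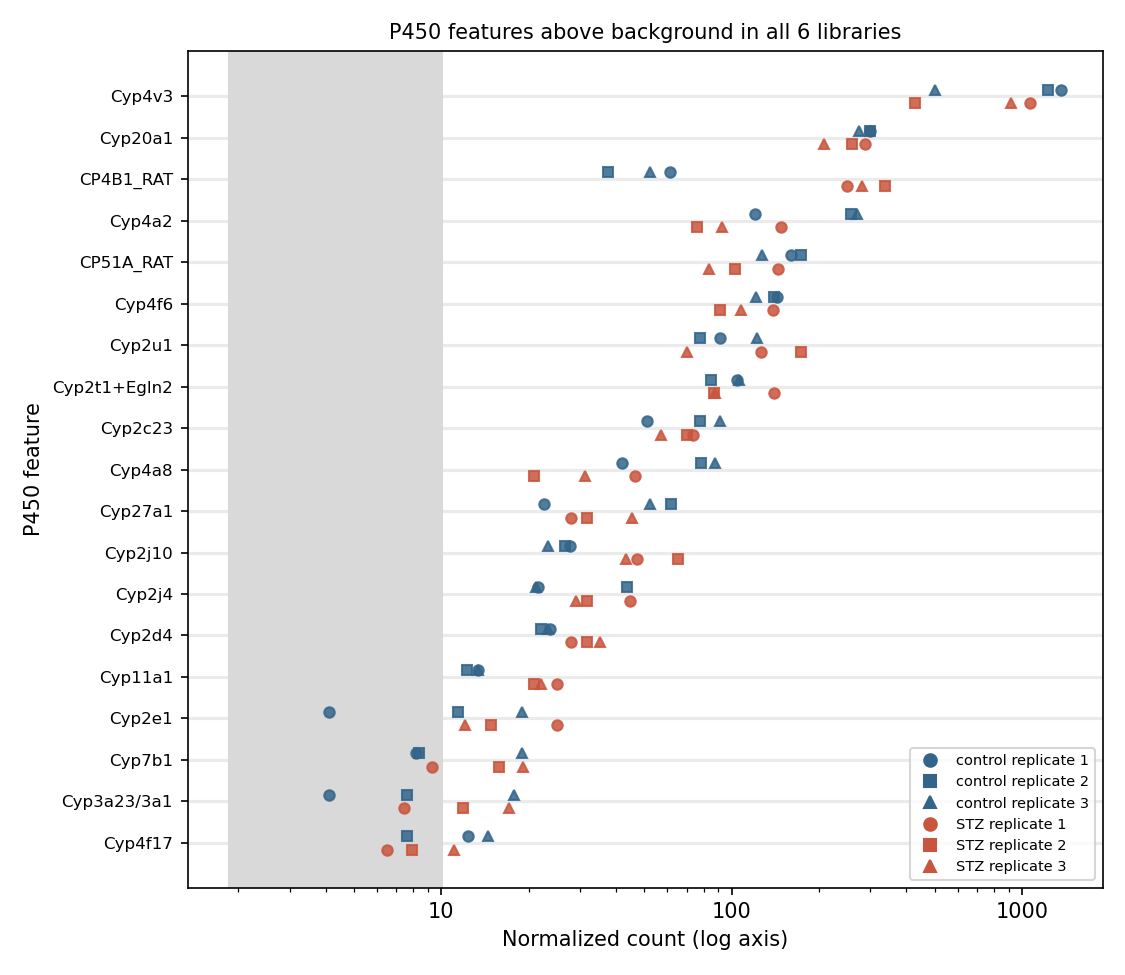
Normalized counts (log axis) of the 17 Cyp genes above background in all 6 libraries, and of CP4B1_RAT and CP51A_RAT, with 1 point per library, blue for control and red for STZ. The grey band spans the libraries' own backgrounds, 1.86 to 10.02, so a point inside it can still exceed the background of its library. The CP4B1_RAT points of the groups are far apart, while those of most other rows overlap.

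By limma, no Cyp gene differed between STZ and control rats past the threshold. Features averaging 5 normalized counts or more were tested with limma on log2(normalized count + 1), with Benjamini-Hochberg adjusted p-values over all 13486 features tested, and called at an adjusted p under 0.05. Of the 27 Cyp genes tested, limma called 0, beside 2.1% of all features. edgeR also called 0, beside 2.13%, and DESeq2 called 1, Cyp4a2, beside 4.44%. DESeq2 gave no adjusted p for 15 of the 27. At an unadjusted p under 0.05 there were 5 Cyp genes, or 18.5% of those tested, beside 14.7% of all features. Cyp2j10, Cyp11a1 and Cyp26b1 had the higher mean in STZ (7.75% of all features) and Cyp4a2 and Cyp4a8 the lower (6.99%). The groups did not overlap for 3 of 27, or 11.1%, beside 20.3% of all features. These were Cyp2j10, Cyp11a1 and Cyp2d4, all with the STZ values above, which held for 10.1% of all features, while 10.3% had them below. The fitted log2 fold change was below 0 for 16 of 27, with a median of −0.22, beside 49.5% and a median of 0.0056 over all features tested. The control and STZ rats were separate animals, and the p-values measure the spread between their libraries. In the STZ group this spread holds rat and lane together, as each STZ library ran on its own lane. As these are tissue samples, fewer cells of a type and less RNA per cell cannot be told apart.

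**Figure D3:**
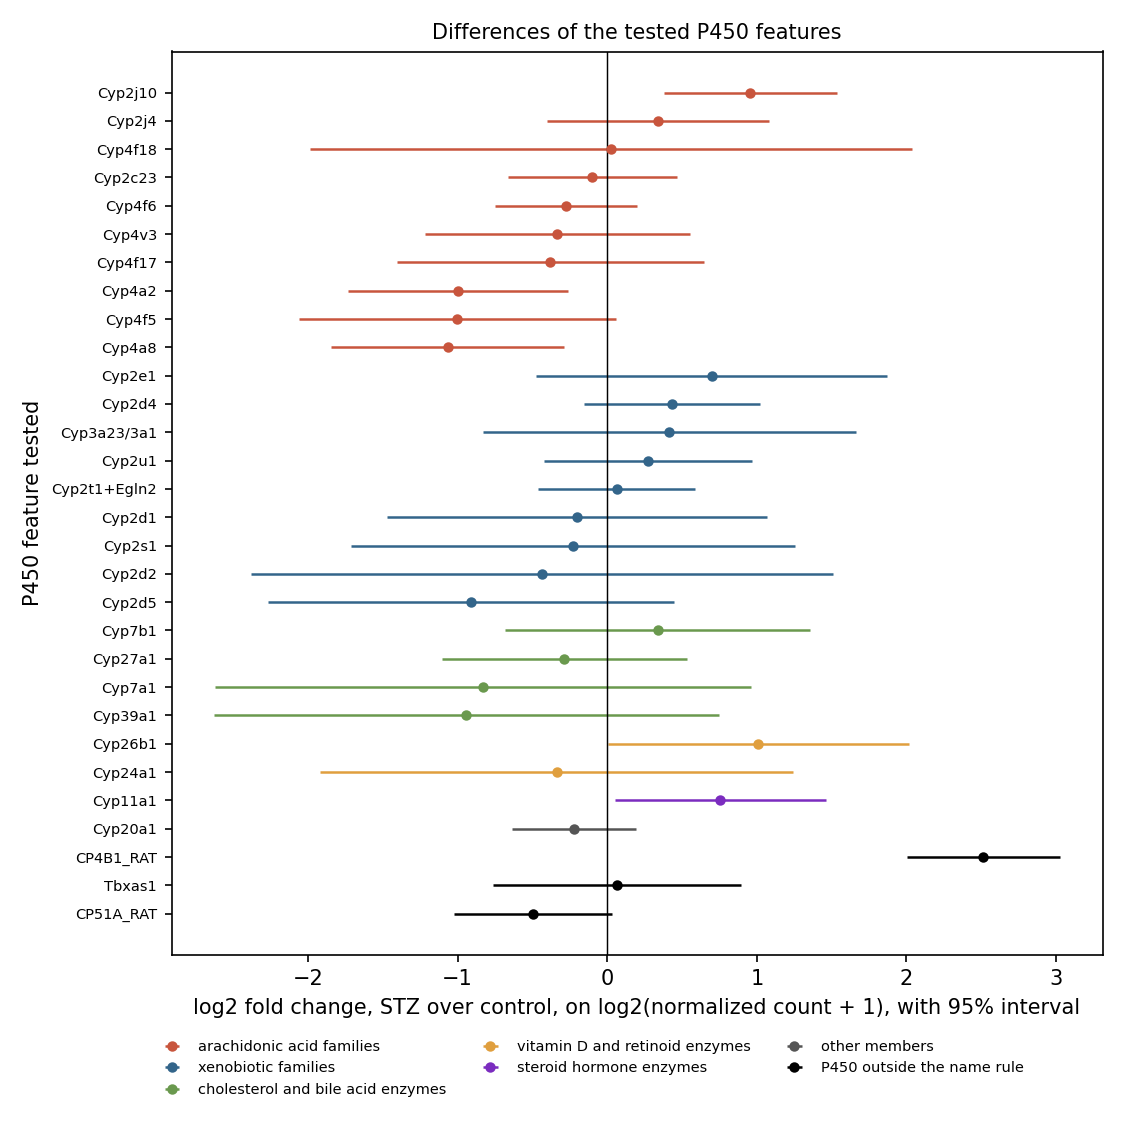
Fitted log2 fold change, STZ over control, with its 95% interval (lines) for the 27 tested Cyp genes, coloured by class, and for 3 P450 features outside the name rule. The interval of CP4B1_RAT, 2.001 to 3.03, lies above those of all the others but Cyp4f18 and Cyp26b1, whose upper ends are 2.04 and 2.01.

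Among the arachidonic acid families, 10 of 21 genes were tested, and 7 of these had the lower fitted value in STZ, with a median log2 fold change of −0.31. Cyp4a2, an arachidonic acid hydroxylase of the kidney (rn4 chr5:135876136-135893741), had 119.9, 259 and 270.5 normalized counts in the control libraries and 148, 76.2 and 92.4 in the STZ libraries. Its group means were 216 ± 83.7 and 105 ± 37.5 (SD, n = 3 each). Control replicate 1 was the lowest of its group and lay below STZ replicate 1, so the groups overlapped. The log2 fold change was −0.998 (SE 0.34, 95% interval −1.74 to −0.26), with an adjusted p of 0.173 by limma, 0.164 by edgeR and 0.0461 by DESeq2. Over the alternatives the adjusted p ran from 0.0461 to 0.477.

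Cyp4a8, another Cyp4a gene of the cluster (rn4 chr5:135546858-135578199), had 42.0, 78.6 and 87.9 normalized counts in control rats and 46.4, 20.8 and 31.1 in STZ rats. The order of the libraries was that of Cyp4a2, with control replicate 1 low and STZ replicate 1 the highest of its group. The log2 fold change was −1.07 (SE 0.35, 95% interval −1.85 to −0.29) with an adjusted p of 0.167 by limma and 0.101 by DESeq2. Cyp4a1 held between 1.004 and 5.34 normalized counts and was not tested. The 3 Cyp4a genes summed to 163, 342 and 359.5 in control and 197, 98.9 and 124 in STZ libraries, and this sum was 12.4% of all Cyp normalized counts in control libraries and 7.19% in STZ rats. Cyp4a genes are near copies of each other and the authors counted uniquely mapped reads, so reads that fit more than a single copy are not in these values.

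Markers of outer kidney segments and of endothelium were among the genes called lower in STZ rats (0.927% of all features). Of 6 proximal tubule markers tested, limma called 1, Kap, a protein of the proximal tubule, which had 174, 195 and 283 normalized counts in control libraries and 65.0, 20.8 and 55.2 in STZ rats (adjusted p = 0.0125 by limma, log2 fold change −2.31). The 8 markers of that list that were measured summed to between 267 and 489 in control and 109.8 and 168 in STZ libraries. None was at 0 in all libraries. Kap and Miox (means of 92.7 in control and 49.4 in STZ libraries) were the highest of the list. Lrp2 (14.9 and 19.1) and Cubn (3.61 and 3.65) had the higher mean in STZ rats, and the others the lower. Of 3 thick ascending limb markers, Umod and Egf were called lower, and the 3 summed to between 1099 and 1886 in control and 209.8 and 597 in STZ libraries. Control replicate 1 had the lowest Kap value of its group, as it had for Cyp4a2. Of 5 endothelial markers, Emcn and Plvap were called lower, and the call of Plvap held in 12 of 19 alternatives. The others were not called: Cdh5 and Tek had log2 fold changes of −0.56 and −0.61. Pecam1 had means of 780 in control and 774 in STZ libraries (log2 fold change 0.04). Without the intensity trend, limma lost the calls of Kap, Umod, Egf, Emcn and Plvap, and without control replicate 2 those of Kap and Plvap. Their part in the Cyp4a values was not tested.

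The Cyp4 cluster spans 438 kb of rn4 chromosome 5 and holds 7 features. LOC100365231 (chr5:135765668-135773001), which lies between Cyp4a8 and Cyp4a2 and carries no Cyp name, had 139, 258 and 177 normalized counts in control libraries and 105, 74.2 and 85.3 in STZ rats. The groups did not overlap. Its log2 fold change was −1.08 (SE 0.25, 95% interval −1.63 to −0.52), with an adjusted p of 0.0564 by limma, 0.0561 by edgeR and 0.00521 by DESeq2, and between 0.00521 and 0.229 over the alternatives. It was named for its place in the cluster after its values were seen. Cyp4x1 and F1M7Y9_RAT, the other members of the cluster, stayed at or under 5.02 and 0.763 normalized counts.

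CP4B1_RAT was the P450 feature that passed the limma test. This is the protein entry name of rat Cyp4b1, an enzyme that oxidizes fatty acids and some foreign compounds, and the feature lies at the far end of the cluster from Cyp4x1 (rn4 chr5:135917347-135934646). It falls outside the name rule and was chosen after its values were seen. Its values were 61.5, 37.4 and 52.3 normalized counts in the control libraries and 249.8, 337 and 280.1 in the STZ libraries. Every STZ library lay above every control library, with means of 50.4 ± 12.2 and 289 ± 44.4 (SD, n = 3 each), a ratio of 5.73. The log2 fold change was 2.51 (SE 0.23, 95% interval 2.001 to 3.03), with an adjusted p of 0.000427 by limma. It passed under all 19 alternatives, with adjusted p-values of at most 0.0291. Within the same 438 kb, Cyp4a2, Cyp4a8 and LOC100365231 thus had the lower mean in STZ rats and CP4B1_RAT the higher.

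**Figure D4:**
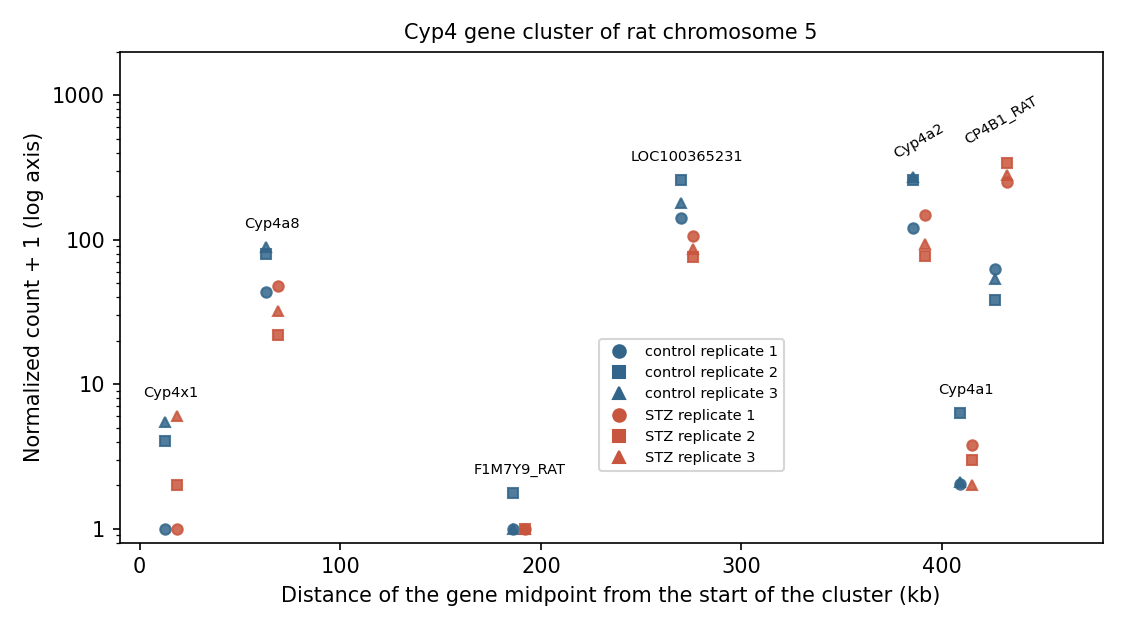
Normalized count + 1 (log axis) of the 7 features of the Cyp4 cluster against the distance of the gene midpoint from the cluster start (kb), with 1 point per library, blue for control and red for STZ, the groups set slightly apart for legibility. CP4B1_RAT at 429 kb has all STZ points above all control points, and LOC100365231 at 273 kb has them all below.

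Some urothelium markers were called higher in STZ rats too. Of 6 tested, 2 were called higher (beside 1.17% of all features), Upk3a and Upk1b, both plaque proteins of the urothelium. Upk3a had 27.7, 28.2 and 50.1 normalized counts in control libraries and 332, 367 and 333 in STZ rats (adjusted p = 0.000117 by limma, log2 fold change 3.30). The call of Upk1b held in 10 of 19 alternatives. The 6 markers summed to between 90.8 and 142 in control and 441 and 529 in STZ libraries, and none was at 0 in all libraries. Upk3a, with means of 35.3 in control and 344 in STZ libraries, made up most of the STZ sums. The means of the 4 markers not called were 28.5 and 32.9 for Upk1a, 8.19 and 15.6 for Upk2, 8.42 and 14.4 for Upk3b, and 5.46 and 7.28 for Tp63. Their part in the CP4B1_RAT values was not tested.

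Cyp2j10, of a family of arachidonic acid epoxygenases (rn4 chr5:116473978-116510889), had 27.7, 26.7 and 23.4 normalized counts in control libraries and 47.4, 65.3 and 43.2 in STZ rats. All STZ values lay above all control values, with means of 25.9 ± 2.26 and 51.9 ± 11.7 (SD, n = 3 each). The log2 fold change was 0.96 (SE 0.26, 95% interval 0.38 to 1.53) with an adjusted p of 0.097 by limma, and between 0.0659 and 0.363 over the alternatives, so it did not pass in any. Cyp2j4, in the same cluster of 4 features over 293 kb, had 21.5, 43.5 and 21.1 in control and 44.6, 31.7 and 29.1 in STZ rats, and the groups overlapped (log2 fold change 0.34, 95% interval −0.41 to 1.08, adjusted p = 0.748 by limma). Cyp2j16 stayed between 0.929 and 3.08. The 3 Cyp2j genes summed to 52.3, 71.7 and 45.6 in control and 92.9, 98.9 and 75.3 in STZ rats, which was 2.43% and 4.57% of all Cyp normalized counts.

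Cyp2c23, an epoxygenase of the rat kidney, had 51.3, 77.8 and 91.3 normalized counts in control libraries and 73.4, 70.2 and 57.2 in STZ rats. The STZ values lay within the control range. The log2 fold change was −0.10 (95% interval −0.67 to 0.46, adjusted p = 0.929 by limma), and its sign turned without control replicate 3 or without STZ replicate 3. The other 4 Cyp2c genes were above background in at most 1 library. Cyp2c11, a male-specific enzyme of the rat liver, had 8.20 normalized counts in control replicate 1 and at most 2.29 in the other libraries.

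Cyp4v3, a fatty acid hydroxylase, had 1361, 1225 and 503 normalized counts in control libraries and 1062, 429 and 919 in STZ rats, a spread that covered both groups (log2 fold change −0.33, 95% interval −1.22 to 0.55, adjusted p = 0.816 by limma). The fitted value turned to 0.07 without STZ replicate 2. The 13 Cyp4 genes of the name rule made up 64.3% of the Cyp normalized counts in control libraries and 55.9% in STZ rats. The 12 Cyp4 genes other than Cyp4v3 held 20.2% and 14.6% of the same Cyp totals, which include Cyp4v3. CP4B1_RAT is outside these sums, and its means of 50.4 in control and 289 in STZ libraries went the other way. Of the Cyp4f genes, which act on leukotrienes as well as on arachidonic acid, Cyp4f6 had 144, 139.6 and 121 in control and 139, 91.0 and 107 in STZ rats (adjusted p = 0.642 by limma, log2 fold change −0.28). Cyp4f17 lay at 7.63 to 14.5 in control and at 6.5 to 11.04 in STZ rats. Cyp4f5, above background in 4 libraries, had 16.4, 13.0 and 15.6 in control and 13.0, 4.95 and 5.02 in STZ rats (log2 fold change −1.003, SE 0.48, adjusted p = 0.372 by limma). The 8 Cyp4f genes summed to between 171 and 189 in control and 114 and 165 in STZ libraries.

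Outside the arachidonic acid families, Cyp11a1, which cuts the side chain of cholesterol at the start of steroid synthesis (rn4 chr8:61793950-61805482), had 13.3, 12.2 and 13.4 normalized counts in control libraries and 25.1, 20.8 and 22.1 in STZ rats. The groups did not overlap. The log2 fold change was 0.76 (SE 0.32, 95% interval 0.05 to 1.46), the adjusted p 0.294 by limma, and over the alternatives it ran from 0.184 to 0.663. The other 4 steroid hormone enzymes did not exceed 3 reads in any library. Cyp26b1, which breaks down retinoic acid, had 19.5, 10.7 and 10.02 in control and 52.0, 15.8 and 23.1 in STZ rats, so that STZ replicate 1 was the highest library by far and the groups overlapped (log2 fold change 1.01, SE 0.46, adjusted p = 0.337 by limma). Without STZ replicate 1 its log2 fold change was 0.54. Cyp24a1, the enzyme that breaks down active vitamin D, lay between 2.05 and 9.15 normalized counts.

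Among the xenobiotic families, 9 genes were tested, with a median log2 fold change of 0.06. Cyp2d4 had 23.6, 22.1 and 23.4 normalized counts in control libraries and 27.9, 31.7 and 35.1 in STZ rats. The groups did not overlap, and the difference did not pass (log2 fold change 0.43, SE 0.27, 95% interval −0.16 to 1.02, adjusted p = 0.52 by limma). Cyp2u1, a fatty acid hydroxylase kept in this class by its name, had 91.2, 77.8 and 122 in control and 126, 173 and 70.3 in STZ rats, and STZ replicates 2 and 3 were the highest and the lowest of all (log2 fold change 0.27, −0.02 without STZ replicate 2). Cyp2e1, which oxidizes ethanol and ketones, lay at 4.10 to 18.9 in control and at 12.05 to 25.1 in STZ rats (log2 fold change 0.70, SE 0.53). Cyp3a23/3a1, a drug-clearing enzyme, ran from 4.10 to 17.8 and from 7.43 to 17.1, with replicate 3 the highest in both groups, as for background. The merged row of Cyp2t1 and Egln2 had 105, 84.7 and 106 in control and 140.2, 87.0 and 87.3 in STZ rats, and its reads cannot be split between Cyp2t1 and Egln2, an oxygen sensor.

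Of the cholesterol enzymes, Cyp27a1, a mitochondrial sterol hydroxylase, had 22.6, 61.8 and 52.3 normalized counts in control libraries and 27.9, 31.7 and 45.2 in STZ rats, and the STZ values lay within the control range (log2 fold change −0.29, SE 0.37, adjusted p = 0.837 by limma). Cyp7b1, which hydroxylates oxysterols, lay at 8.20 to 18.9 in control and at 9.29 to 19.1 in STZ rats. CP51A_RAT, the protein entry name of Cyp51 of cholesterol synthesis and outside the name rule, had 159.9, 173 and 127 in control and 145, 103 and 83.3 in STZ rats (log2 fold change −0.50, 95% interval −1.03 to 0.04, adjusted p = 0.379 by limma). Cyp20a1 had 299, 299.8 and 275 in control and 287, 259 and 208 in STZ rats (adjusted p = 0.675 by limma, log2 fold change −0.22). Of the remaining genes not above background in every library, Cyp2d5 ran from 1.98 to 14.5, Cyp2s1 from 2.97 to 12.2 and Cyp39a1 from 1.86 to 14.5, and the groups overlapped for each. The 31 Cyp genes not tested had no library above 14.5 normalized counts.

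Genes that pass electrons to P450 enzymes or make their heme gave no call. Of 10 electron transfer partners tested, 0 were called by limma, beside 2.1% of all features. At an unadjusted p under 0.05 there were 3, beside 14.7% of all features. Cyb5a, an electron donor of the endoplasmic reticulum, lay at 1898 to 2502 normalized counts in control libraries and at 1615 to 2219 in STZ rats. The groups did not overlap for 3 of the 10, beside 20.3% of all features. These were Cyb5r1 (log2 fold change −0.43, adjusted p = 0.321 by limma), Cyb5r3 (0.52, adjusted p = 0.242) and Pgrmc1 (0.46, adjusted p = 0.286). Por, the reductase of microsomal P450 enzymes, lay at 35.6 to 136 in control and at 17.8 to 105 in STZ rats. Of 10 genes of heme synthesis and breakdown, 0 were called by limma, with 1 at an unadjusted p under 0.05, and Alad, an early enzyme of heme synthesis, lay at 561 to 769.6 in control and at 579 to 779 in STZ rats.

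Of 14 other eicosanoid genes tested, limma called 1, beside 2.1% of all features. This was the lipoxygenase Alox15b, which had 116, 42.0 and 42.3 normalized counts in control libraries and 466, 374 and 246 in STZ rats. Every STZ library lay above every control library (log2 fold change 2.55, SE 0.38, adjusted p = 0.00754 by limma), and the call was lost without the intensity trend. Ptgs1, a cyclooxygenase, had 9052, 9487 and 6998 in control and 6237, 6474 and 6124 in STZ rats, with no overlap and an adjusted p of 0.404 by limma. The P450 members of this list, which carry no Cyp name, are Tbxas1, the thromboxane synthase, and Ptgis, the prostacyclin synthase. Tbxas1 lay at 14.4 to 31.2 in control and at 15.8 to 24.1 in STZ rats. Ptgis had at most 3.05 in control and at most 9.89 in STZ rats and was not tested.

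Of 12 nuclear receptors and sensors tested, limma called 1, beside 2.1% of all features. This was Pparg, a fatty acid receptor, which had 42.0, 58.7 and 28.9 normalized counts in control libraries and 229, 128 and 152 in STZ rats. The groups did not overlap (log2 fold change 1.96, SE 0.30, adjusted p = 0.00867 by limma), and the call was lost without the intensity trend. Ppara, the receptor known to drive Cyp4a genes in the liver, lay at 2.05 to 16.7 in control and at 3.71 to 15.1 in STZ rats. Ahr, the sensor that drives Cyp1a1, lay at 6.86 to 15.4 in control and at 13.0 to 22.1 in STZ rats, and Cyp1a1 was above background in 1 library. Srebf2, which controls cholesterol synthesis, had 277, 249 and 164 in control and 507, 355 and 286 in STZ rats, with no overlap (log2 fold change 0.73, adjusted p = 0.207 by limma).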

How the data were processed

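Total RNA of the IM tip was turned into cDNA with a PCR-based kit and sequenced. Reads were aligned by the authors with STAR 2.3.1t (genome rn4), who counted uniquely mapped reads per gene and divided these counts by the DESeq size factor of each library (DESeq 1.16.0, per the submitters' processing notes). Strand use in counting is not given in the sources used here. The deposited values are thus a signal in normalized counts, and 100% of them were whole multiples of the value of 1 read (tolerance 0.01), so whole reads were recovered. No molecular identifiers were used, so floors of 3 reads cover counting error only.

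Of 27321 features, 13486 with a mean of at least 5 were tested on log2(normalized count + 1) by limma 3.58.1 (R 4.3.3), using an intensity trend, Benjamini-Hochberg adjustment and no covariate. Fold changes are on that scale, where adding 1 narrows the differences between low values. For low genes they lay under or over those of edgeR, at 0.76 against 0.81 for Cyp11a1 and 0.70 against 0.60 for Cyp2e1. Exact permutation tests of 3 against 3 libraries were not used, as they cannot give a p under 0.1. On the recovered reads, edgeR 4.0.16 and DESeq2 1.42.0 were alternatives, beside other pseudocounts, filters and scalings, a replicate block and leaving out each library. Leaving out replicate 3 of both groups was chosen after seeing the data. The scripts were tested on simulated data.

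Cyp genes are described in full if above background in all libraries, called, or without overlap, and 5 others for their mean. Of the lists, genes called, those without overlap at a mean of at least 20 and the highest by mean are named. LOC100365231, CP4B1_RAT and the other P450 features outside the name rule, and Por, Ppara, Ahr, Cyp24a1, Cyp2c11, Cyp1a1, Cyp4a1, Aldh1a1 and Vdr, were added after values were seen. The members and lists were chosen with earlier results of these data known. Alas1, Ephx2, Cyb5r2, Avpr2, Slc34a1 and some other list members were not analysed here. A list gene that this rule would name is not reported here.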

Additional observations from a re-analysis of the deposited data

How the results depend on the processing

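Fitted values of 17 Cyp genes, 3 other P450 features, LOC100365231 and 25 list genes were compared under 19 alternatives. Of these, 810 kept their direction and side of the threshold, 24 lost a call, 24 gained one and 11 turned sign. A missing adjusted p of DESeq2 was counted here as not called. Cyp genes called by limma stayed at 0 under every alternative but DESeq2, which called 1. Cyp genes above background in all libraries numbered 9 against the 99th percentile and 1 per kilobase of locus. The features called numbered 522 with quantile normalization, 31 without the intensity trend and 599 by DESeq2, against 283, and leaving out each library in turn gave 88 to 352. The cause was not tested, except that leaving out a library leaves fewer samples. The 11 sign changes came from leaving out libraries, over which the log2 fold change ran from −0.0258 (without control replicate 1) to 0.92 for Cyp3a23/3a1, from −0.13 to 0.41 for Tbxas1, from −0.16 to 0.23 for Cyp2t1+Egln2, from −0.34 to 0.18 for Cyp2c23, from −0.0182 (without STZ replicate 2) to 0.80 for Cyp2u1 and from −0.93 to 0.0664 (without STZ replicate 2) for Cyp4v3.

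Control and STZ rats share replicate numbers. Deviations of same-numbered libraries correlated at 0.395, −0.061 and 0.323 (across 9315 genes), and those of differently numbered libraries at −0.472 to 0.220. The values of replicates 1 and 3 were thus the highest, and that of replicate 2 was not. Whether the numbers pair the libraries cannot be told from these values. With the replicate block 561 features and 0 Cyp genes were called, and among the other named genes Srebf2 (adjusted p = 0.0398), LOC100365231, Serpina1, Slc12a1 and Slc14a1 gained a call by limma. The SE of the log2 fold change was 0.23 for CP4B1_RAT, 0.40 for Cyp4v3 and 0.91 for Cyp4f18, whose libraries held 1.03 to 15.6 normalized counts.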

Other observations

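The genes that handle vitamin D and retinoids beside the P450 enzymes showed no call. Of 9 tested, limma called 0, beside 2.1% of all features, with 0 at an unadjusted p under 0.05. Aldh1a1, which makes retinoic acid, lay at 227 to 321 normalized counts in control libraries and at 186 to 374 in STZ rats. Vdr, the vitamin D receptor, had at most 6.10 in any library and was not tested.

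Reads on rows that join neighbouring P450 genes were few. The row joining LOC100365231 and Cyp4a2 had 4.10, 13.0 and 2.23 normalized counts in control libraries and 1.86, 0 and 2.01 in STZ rats. Of the other P450 features outside the name rule, CP2A3_RAT, CP2J3_RAT, CP3A2_RAT and the row merging Cyp1b1 stayed at or under 9.29 in every library.

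Macrophage and leukocyte markers gave 0 calls by limma of 6 tested, beside 2.1% of all features. At an unadjusted p under 0.05 there were also 0. Hepatocyte markers gave 0 of 3, with 1 at an unadjusted p under 0.05, Serpina1 (log2 fold change 2.42, adjusted p = 0.0710 by limma). The other members tested were Alb, with a log2 fold change of −0.48, and Tf, with 0.07. The pericyte and smooth muscle list gave 1 of 3 higher, Tagln, beside 1.17% of all features. Its other members tested were not called: Rgs5 had a log2 fold change of 0.48 and Pdgfrb one of −0.16. Thin limb markers gave 0 of 4, with 1 at an unadjusted p under 0.05, and collecting duct markers 0 of 7, with 5, beside 14.7% of all features. Of these 5, Aqp2, Aqp3, Scnn1b and Scnn1g had the higher mean in STZ rats and Hsd11b2 the lower. For Serpina1, Slc12a1, Slc14a1, Srebf2, Aqp2 and Scnn1g, 1 or more alternatives gave a call.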
